A study of Mus musculus with 46 samples.

Results

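The genes Stag3, Ccdc36, Rbm46 and Taf4b are 4 of the 14360 genes measured in mouse thyroid cell lines and of the 14056 genes measured in a Max addback experiment on 1 of those lines. They were chosen by name, because earlier results on these lines had shown more of their RNA in lines that carry a Max mutation. Their levels in those lines are therefore given as a description without a test, and a test is given only for the addback libraries and for genes outside the 4. All 4 genes were listed in both tables and were read in each group of libraries.

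Stag3, Ccdc36, Rbm46 and Taf4b encode proteins that work mainly in germ cells, where meiosis takes place, and most somatic tissues keep such genes silent. A repressor complex called PRC1.6 takes part in that silencing in mouse cells. It contains MGA, a partner that binds DNA together with MAX, and also the subunits E2F6, PCGF6 and L3MBTL2. STAG3 is a subunit of the meiotic form of cohesin, the ring that holds sister chromatids together. CCDC36, also called IHO1, helps to start the DNA breaks of meiotic recombination. RBM46 is an RNA-binding protein that germ cells need to enter and complete meiosis. TAF4B is a germ cell subunit of TFIID, the general factor that places RNA polymerase II at promoters.

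RNA was sequenced from cultured thyroid cells of mice that develop thyroid tumours. The mice carried conditional Rb and p53 mutations, with or without a Max mutation, which an Ascl-CRE that tamoxifen switches on brings about in neuroendocrine cells. There were 4 Rb/p53/Max mutant lines (RPM) and 4 Rb/p53 mutant lines (RP). In a separate experiment 1 Rb/p53/Max mutant line, by its library names that of RPM replicate 2, was transduced with a Max expressing vector (3 libraries) or with an empty vector (3 libraries). All 14 libraries thus share the Rb and p53 mutations, each of the 8 lines has an identifier of its own, and the 6 transduced libraries all come from 1 line. Nothing in the labels says that these 6 were separate cultures, so their p-values measure only the spread between these libraries. Ages and sexes are not given in the labels.

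Reads over the listed genes came to 7829982 to 8408913 in RPM, 8242657 to 8498396 in RP, 7426964 to 7912573 in addback and 6738614 to 7238672 in empty vector libraries. Levels are in CPM, read counts scaled to library size and by the authors' TMM factor, and 3 reads were worth 0.353 to 0.458 CPM. These floors cover counting error only. The cells held neuroendocrine transcripts: the summed level of 8 neuroendocrine and C cell markers was 4017 to 16983 CPM in RPM and 4287 to 5572 CPM in RP lines, and 5494 to 6194 CPM with addback and 3983 to 4238 CPM with empty vector. Calca, the largest part of the sum in the transduced libraries, did not pass with addback (limma adjusted p = 0.411), whereas the other 7 markers rose, by 3.71-fold for Insm1, 4.82-fold for Chgb and 14.4-fold for Calcb among them. The part of this shift in the levels of Stag3, Ccdc36, Rbm46 and Taf4b was not tested. Of 5 thyroid follicular markers only Slc5a5 was listed for the lines, at 1.79 to 8.88 CPM in RPM and 1.22 to 2.47 CPM in RP lines. Max itself was read at 68.9 to 103 CPM in RPM and 44.7 to 65.2 CPM in RP lines. Every RPM line held more of it than any RP line, though it did not pass (limma adjusted p = 0.161). The level of Max RNA therefore does not check the genotype, and why it was not lower in RPM lines was not tested. With addback Max stood at 220 to 251 CPM, against 83.1 to 96 CPM with empty vector.

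Several libraries stood apart. RP replicate 4 held 344 CPM of Xist, made by the inactive X chromosome, together with 53.3 CPM of the Y-linked gene Ddx3y, whereas each other line held only 1 of these above 10 CPM. The 3 addback libraries had no read of Ddx3y, while the empty vector libraries held 157 to 177 CPM and the untransduced line 125 CPM. The Y-linked genes Kdm5d, Eif2s3y and Uty likewise were at most 0.257 CPM with addback, against 60.9 to 120 CPM with empty vector. Whatever else separates these cells cannot be told apart from Max. RPM replicate 1 has an identifier that tumour libraries with an Rb/p53 mutant label carry too. Addback replicate 3 stood apart from the other addback libraries: its chi-square over genes, divided by the degrees of freedom, was 15.5 and 13.2 against addback replicates 1 and 2, and 1.83 between those 2. Values without these libraries are given where they bear on a result.

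The promoters of Stag3, Ccdc36 and Rbm46 are shown because MAX-containing complexes act at promoters and because the genes were high in the same lines. Each sequence runs from 250 bases before to 50 bases after the RefSeq start site on GRCm38.p6, 5′ to 3′ in the direction of the gene. Capitals mark matches to 3 motifs searched on both strands. They were the E-box CACGTG bound by MAX dimers, the E2F motif GGCGGGA, which reads TCCCGCC on the other strand, and the T-box motif GGTGTGA, of the kind that MGA can bind.
Stag3 (chr5:138280259-138280558, plus strand): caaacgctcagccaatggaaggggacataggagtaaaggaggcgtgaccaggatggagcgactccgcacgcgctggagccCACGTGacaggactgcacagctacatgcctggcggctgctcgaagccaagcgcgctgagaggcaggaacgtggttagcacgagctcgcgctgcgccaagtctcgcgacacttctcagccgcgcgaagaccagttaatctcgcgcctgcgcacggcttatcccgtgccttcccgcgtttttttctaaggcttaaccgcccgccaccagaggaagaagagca
Rbm46 (chr3:82876434-82876733, minus strand): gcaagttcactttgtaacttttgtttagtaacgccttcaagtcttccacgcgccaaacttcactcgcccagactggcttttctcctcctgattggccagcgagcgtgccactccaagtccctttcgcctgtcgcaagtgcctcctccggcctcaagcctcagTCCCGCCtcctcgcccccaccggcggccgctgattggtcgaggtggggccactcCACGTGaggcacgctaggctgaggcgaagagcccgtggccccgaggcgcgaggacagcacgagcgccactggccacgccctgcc
Ccdc36 (chr9:108431777-108432076, minus strand): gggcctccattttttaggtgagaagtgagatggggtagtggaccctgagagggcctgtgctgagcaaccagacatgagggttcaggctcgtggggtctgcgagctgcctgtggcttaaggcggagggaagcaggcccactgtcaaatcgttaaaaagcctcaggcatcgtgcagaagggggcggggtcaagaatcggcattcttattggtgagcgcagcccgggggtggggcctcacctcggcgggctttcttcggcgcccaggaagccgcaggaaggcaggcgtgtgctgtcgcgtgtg

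The Stag3 window holds 1 E-box at position -170 from the start site, and the Rbm46 window holds 1 E-box at -34 and 1 E2F motif at -88. The Ccdc36 window holds none of the 3 motifs, which says only that these letters are not in this window. Of 32851 such mouse windows, 7.15% hold the E-box, 11.3% the E2F motif and 3.98% the T-box motif. The ratio of observed to expected CpG is 1.06 for Stag3, 0.84 for Rbm46 and 0.637 for Ccdc36, beside a median of 0.384 and an upper quartile of 0.75 over all windows. RefSeq places the Ccdc36 start, under the name Iho1, at 108431826, upstream of the end of the gene model used for its coordinates. No promoter window of Taf4b was used.

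Stag3 (ENSMUSG00000036928.14; mm10, chromosome 5, 138280240 to 138312393, plus strand) was read at 320, 356, 305 and 273 CPM in RPM replicates 1 to 4, against 3.01, 1.2, 0 and 46.6 CPM in RP replicates 1 to 4. All RPM lines were high and close to each other, 3 RP lines were low, with 25, 10 and 0 reads, and RP replicate 4 stood between the groups without reaching the RPM range. The means were 313 ± 34.4 CPM in RPM and 12.7 ± 22.6 CPM in RP lines (SD, n = 4 each), a 24.6-fold ratio. The log2(CPM + 1) difference of 6.11 (SE 1.01) was the largest of all 14360 genes. By the ratio of means Stag3 was not first, as Tdrd1 stood at 42.8-fold and Gm4969 at 25.2-fold. Without RP replicate 4 the RP mean of Stag3 was 1.4 CPM and its ratio 223-fold, so that 1 library sets the size of the ratio. Without RPM replicate 1 the RPM mean was 311 CPM and the ratio 24.5-fold.

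In the addback experiment Stag3 was read at 283, 252 and 234 CPM with addback and at 482, 490 and 499 CPM with empty vector. The groups did not overlap, and every addback library still held more Stag3 than RP replicate 4, the highest RP line. The mean fell to 256 ± 24.7 CPM with addback, against 490 ± 8.5 CPM with empty vector (SD, n = 3 each), or 52.2% of the empty vector level. The log2 change was -0.94 (SE 0.09, 95% interval -1.13 to -0.75, limma adjusted p = 1.12e-05). The exact permutation p, two-sided, was 0.1, the smallest that 3 against 3 libraries allow. Without addback replicate 3 the addback mean was 267 CPM, or 54.5%. The addback mean was 20.2 times the RP mean, a level set across tables that the authors normalised separately.

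Ccdc36 (ENSMUSG00000047220.5; chromosome 9, 108403611 to 108428484, minus strand) was read at 23.9, 18.8, 40.1 and 32.6 CPM in RPM replicates 1 to 4, against 0.241, 1.92, 2.19 and 6.24 CPM in RP replicates 1 to 4. No RPM line was as low as any RP line, and the lowest RPM line was 3.02 times the highest RP line. The means were 28.8 ± 9.42 CPM in RPM and 2.65 ± 2.55 CPM in RP lines (SD, n = 4 each), a 10.9-fold ratio and a log2 difference of 3.25 (SE 0.51). Without RP replicate 4 the ratio was 19.9-fold. Another gene, 1700102P08Rik, overlaps Ccdc36 on the opposite strand. No source used here says whether counting used the strand, so reads of these genes cannot be told apart.

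With addback Ccdc36 was read at 11.1, 9.96 and 13.2 CPM, against 23.4, 20.5 and 23.4 CPM with empty vector. The groups did not overlap and the addback libraries lay between the empty vector and RP levels. The mean fell to 11.4 ± 1.67 CPM with addback, against 22.4 ± 1.7 CPM with empty vector (SD, n = 3 each), or 50.9%, a log2 change of -0.92 (SE 0.13, 95% interval -1.21 to -0.63, limma adjusted p = 0.000228; exact permutation p = 0.1). Without addback replicate 3 the addback mean was 10.5 CPM, or 46.9% of the empty vector level.

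Rbm46 (ENSMUSG00000033882.15; chromosome 3, 82837228 to 82876483, minus strand) was read at 48.4, 16.8, 20.9 and 20.4 CPM in RPM replicates 1 to 4, against 0.842, 0, 0 and 3.89 CPM in RP replicates 1 to 4. RPM replicate 1 stood well above the other RPM lines, and 2 RP lines had no read. The means were 26.6 ± 14.6 CPM in RPM and 1.18 ± 1.85 CPM in RP lines (SD, n = 4 each), a 22.5-fold ratio and a log2 difference of 3.87 (SE 0.56). Both ends of that ratio rested on single lines. It was 94.9-fold without RP replicate 4 and 16.4-fold without RPM replicate 1, the line with the shared animal identifier.

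With addback Rbm46 was read at 6.48, 3.86 and 5.91 CPM, against 7.43, 7.81 and 6.41 CPM with empty vector. The groups overlapped. The means were 5.42 ± 1.38 CPM with addback and 7.22 ± 0.725 CPM with empty vector (SD, n = 3 each), and the log2 change of -0.38 (SE 0.18) did not pass the threshold (limma adjusted p = 0.107; exact permutation p = 0.2). Its 95% interval, -0.78 to 0.03, leaves room for a fall. Without addback replicate 3 the addback level was 71.6% of that with empty vector. The 3 addback libraries held 51, 31 and 46 reads of Rbm46 and the empty vector libraries 52, 55 and 42, which limits what could be seen. The empty vector level was itself low, 0.429 times the 16.8 CPM of the untransduced line in the other table.

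Taf4b (ENSMUSG00000054321.7; chromosome 18, 14783245 to 14900359, plus strand) was read at 13.5, 22.8, 15.7 and 15.6 CPM in RPM replicates 1 to 4, against 2.05, 3.61, 1.22 and 3.53 CPM in RP replicates 1 to 4. No RP line lacked it, and the groups did not overlap. The means were 16.9 ± 4.06 CPM in RPM and 2.6 ± 1.17 CPM in RP lines (SD, n = 4 each), a 6.51-fold ratio and a log2 difference of 2.35 (SE 0.31). This ratio was the smallest of the 4 genes and depended least on single lines, with 7.39-fold without RP replicate 4 and 6.94-fold without RPM replicate 1. With addback Taf4b was read at 15.9, 16.4 and 11.4 CPM, against 39.9, 36.7 and 34.7 CPM with empty vector. The groups did not overlap. The mean fell to 14.6 ± 2.74 CPM with addback, against 37.1 ± 2.63 CPM with empty vector (SD, n = 3 each), or 39.4%, a log2 change of -1.30 (SE 0.14, 95% interval -1.62 to -0.99, limma adjusted p = 3.62e-05; exact permutation p = 0.1). Without addback replicate 3 the level was 43.6%. A processed pseudogene, AC133172.1, overlaps Taf4b on the same strand, and no source used here says how reads in the overlap were counted.

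**Figure D1:**
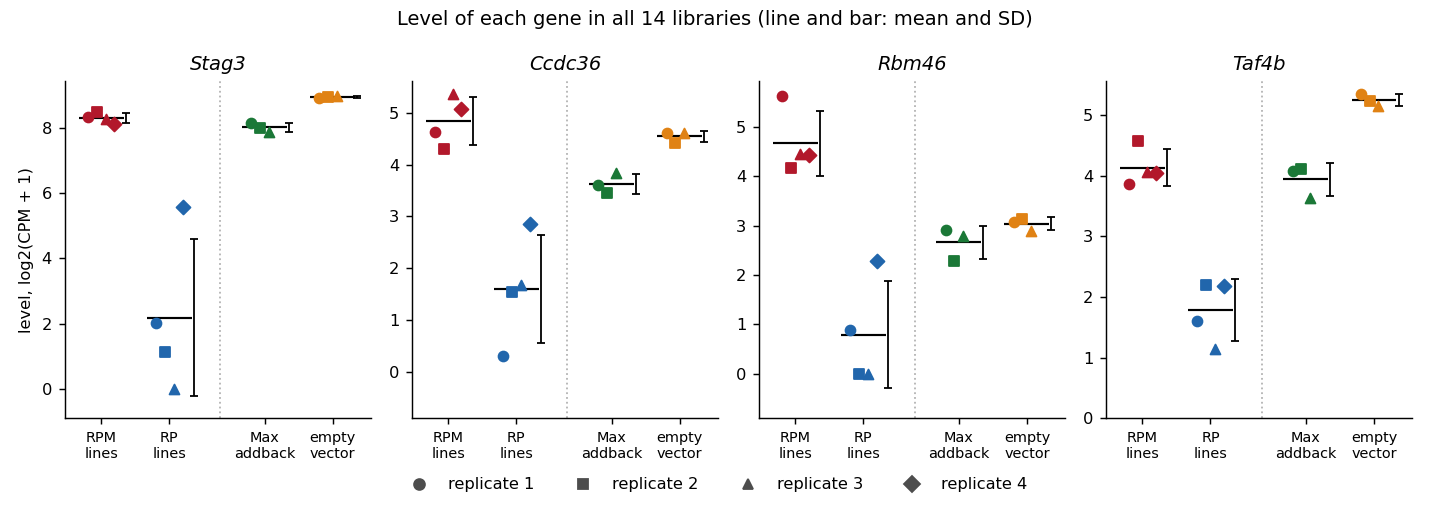
Level of Stag3, Ccdc36, Rbm46 and Taf4b, as log2(CPM + 1), in the 14 libraries; each point is a library, its shape the replicate number, the horizontal line the group mean and the bar its SD. The RPM and RP lines on the left of the dotted line and the addback and empty vector libraries on its right come from tables normalised separately; RP replicate 4 is the highest RP line for 3 genes, with 46.6 CPM of Stag3.

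The RPM and RP ranges were apart for all 4 genes, as for 4.97% of all genes with RPM above RP. The rule that chose the genes used this contrast, so nothing is read from that count. The authors' deposited table gives log2 fold changes of 4.62, 3.44, 4.47 and 2.69 for Stag3, Ccdc36, Rbm46 and Taf4b in the lines, and calls all 4 higher in RPM, as it does 1.72% of all genes. In the addback experiment 3 of the 4 genes fell, where limma called 25.5% of all genes lower and 27.7% higher. The same 3 did not overlap between the groups, as for 30.2% of all genes with addback below empty vector. The authors' deposited table likewise calls Stag3, Ccdc36 and Taf4b lower with addback, with log2 fold changes of -0.94, -0.97 and -1.34, and does not call Rbm46 (-0.42, FDR = 0.0957). It calls 13.1% of all genes lower. Of 14056 genes ranked by log2 change from the lowest, Taf4b was number 427, Stag3 799, Ccdc36 834 and Rbm46 2999. In bulk RNA, fewer cells that make a transcript and less of it per cell cannot be told apart.

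Whether the 4 genes fell by different amounts was asked within libraries, by the difference of log2(CPM + 1) between 2 genes, for all 6 pairs. Rbm46 and Taf4b differed most in their change with addback, by 0.92 (log2). Stag3 and Ccdc36 differed least, by -0.02. The exact two-sided permutation p was 0.1 for 4 of the pairs, the smallest possible, and 0.15 after adjustment over the 6. This test cannot fall under 0.05 with 3 against 3 libraries, so it does not show whether the genes fell by different amounts.

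**Figure D2:**
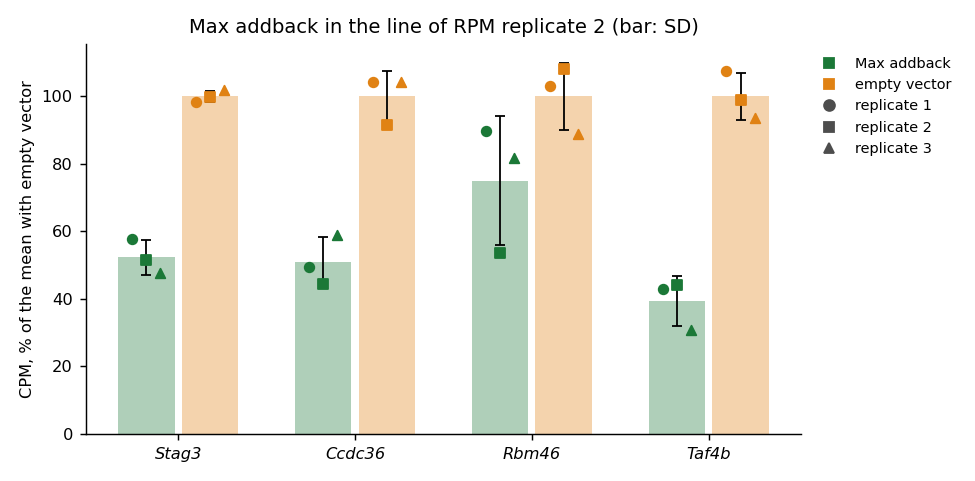
CPM with Max addback and with empty vector in the line of RPM replicate 2, as % of the mean with empty vector; bars are means of 3 libraries, error bars SD and points the libraries. Addback stood at 52.2% for Stag3, 50.9% for Ccdc36, 75.1% for Rbm46 and 39.4% for Taf4b.

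The levels were ordered differently from gene to gene over the 4 groups, which are set side by side here across 2 tables normalised separately. For Stag3 and Taf4b the empty vector libraries were highest, RPM lines and addback libraries followed with overlapping ranges, and RP lines were lowest. For Ccdc36 the RPM lines, at 18.8 to 40.1 CPM, enclosed the empty vector libraries, and the addback libraries, from 9.96 CPM, stayed above the highest RP line. For Rbm46 the RPM lines were highest, and the addback libraries reached the RP range, with 3.86 CPM in addback replicate 2 beside 3.89 CPM in RP replicate 4. Empty vector cells were also set beside the untransduced line they came from, which is 1 library. Their mean was 1.38 times its level for Stag3, 1.19 times for Ccdc36 and 1.62 times for Taf4b, but 0.429 times for Rbm46.

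No RPM line led in all 4 genes. RPM replicate 2 was highest for Stag3 and Taf4b and lowest for Ccdc36 and Rbm46, RPM replicate 3 was highest for Ccdc36, and RPM replicate 1 was highest for Rbm46 and lowest for Taf4b. The SD over the RPM lines was 11% of the mean for Stag3, 24% for Taf4b, 32.7% for Ccdc36 and 54.8% for Rbm46. Over the RP lines it was 178%, 44.9%, 96% and 156% for the same genes. RP replicate 4 was the highest RP line for Stag3, Ccdc36 and Rbm46, and its 3.53 CPM of Taf4b lay just under the 3.61 CPM of RP replicate 2. Set against the RPM mean, RP replicate 4 held 14.9% of the Stag3, 21.6% of the Ccdc36, 14.6% of the Rbm46 and 20.9% of the Taf4b level. This is the line with both Xist and Ddx3y, and the part of that in these levels was not tested.

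**Figure D3:**
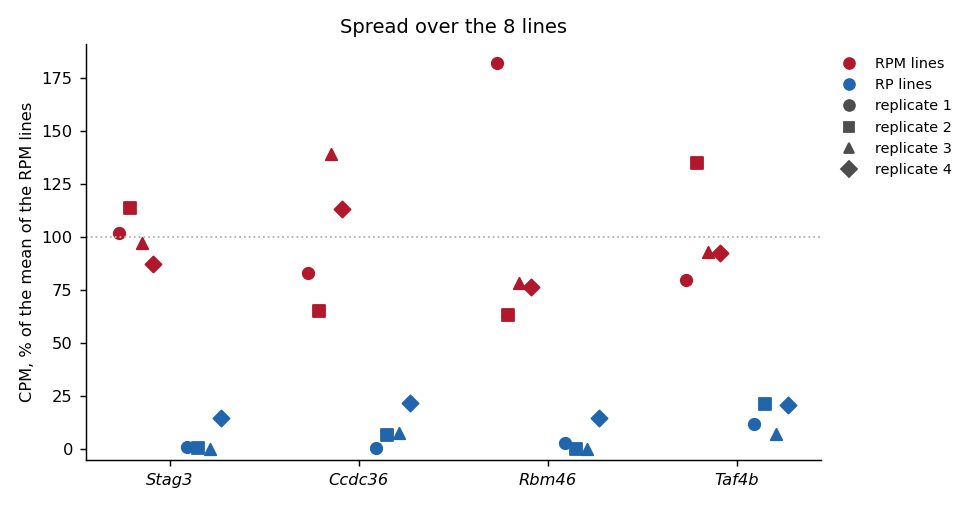
CPM of the 4 genes in each of the 4 RPM and 4 RP lines, as % of the RPM mean (dotted line at 100%); each point is a line and its shape the replicate number. RPM lines lie close together for Stag3, RPM replicate 1 stands apart for Rbm46, and RP replicate 4 reaches 14.6 to 21.6%.

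To compare genes with each other, levels per length (RPKM) were used. In RPM lines Stag3 averaged 54.6 ± 6.01 RPKM, Rbm46 10.7 ± 5.84, Ccdc36 9.98 ± 3.26 and Taf4b 3.29 ± 0.788 RPKM (SD, n = 4). Stag3 was thus the most abundant transcript of the 4, and Rbm46 and Ccdc36 did not differ beyond their spread. STAG1 and STAG2 are the counterparts of STAG3 in mitotic cohesin. Stag2 averaged 34.5 ± 3.77 RPKM in RPM and 37.1 ± 7.76 RPKM in RP lines, and Stag1 12.5 ± 1.12 and 10.9 ± 0.948 RPKM (SD, n = 4 each). Stag3 made up 51.1 to 56% of the summed RPKM of the 3 genes in RPM lines, against 0 to 13.9% in RP lines, and 36.8 to 41.5% with addback, against 54.7 to 57.6% with empty vector. Neither Stag1 nor Stag2 passed the test in the lines (limma adjusted p = 0.41 and 0.824) or with addback (0.306 and 0.893).

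TAF4B has a widely expressed counterpart, TAF4. Taf4 averaged 20.4 ± 5.07 RPKM in RPM and 22.3 ± 1.58 RPKM in RP lines (SD, n = 4 each; limma adjusted p = 0.681). Taf4b made up 10 to 19.3% of the summed RPKM of both genes in RPM lines, against 1.11 to 3% in RP lines. With addback Taf4 rose to 97.7 ± 6.03 CPM, against 69.8 ± 4.62 CPM with empty vector (SD, n = 3 each; limma adjusted p = 0.000905). The Taf4b share was 9.83 to 13.5% with addback, against 29.9 to 35.7% with empty vector. Of the 16 listed TFIID subunits besides Taf4b none passed in the lines by limma (1 at an unadjusted p under 0.05), edgeR or DESeq2. With addback 5 fell (Taf5, Taf11, Taf12, Tbp and Tbpl1) and Taf4 alone rose, beside 25.5% of all genes lower and 27.7% higher, with a list median of -0.07. The call of Tbp was lost without addback replicate 1 or without any 1 of the empty vector libraries, and that of Taf11 without empty vector replicate 3.

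**Figure D4:**
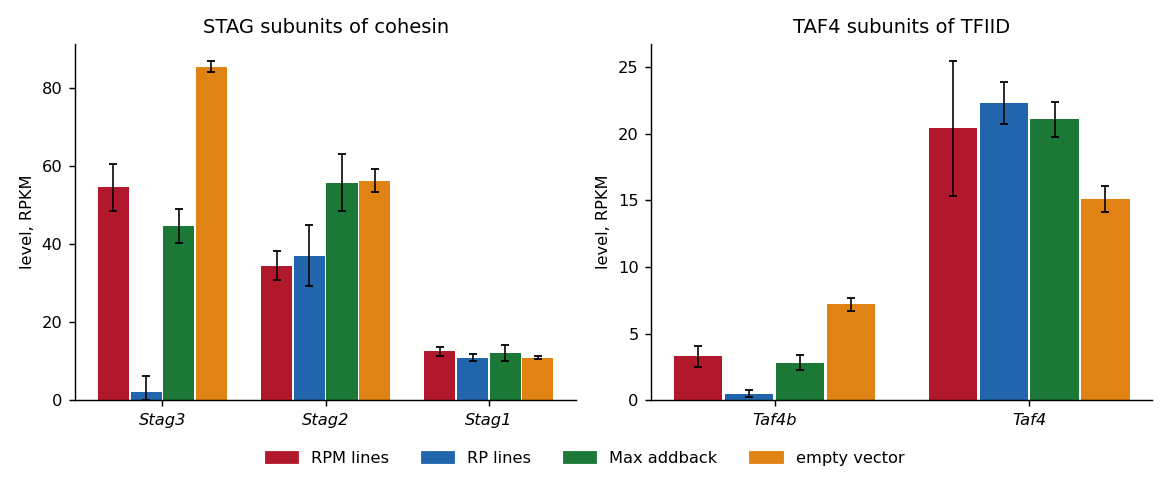
Mean RPKM of Stag3 beside Stag2 and Stag1, and of Taf4b beside Taf4, in RPM lines, RP lines, addback and empty vector libraries; error bars are SD (n = 4, 4, 3 and 3), cut at 0. Stag3 averages 54.6 RPKM in RPM and 2.22 RPKM in RP lines, and the counterparts are read in all groups.

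The other genes of meiosis and germ cells were examined in 6 lists without the 4 genes. Of 63 symbols searched, 29 were found among the genes of the lines and 30 among those of the addback experiment. In the lines 1 gene passed, Tdrd1, which encodes a Tudor domain protein that acts with piRNAs, where limma called 0.209% of all genes higher and 0.334% in either direction. The median log2 difference of the 29 genes was 0.45, with 23 of them above 0, beside a median of -0.01 over all genes. Leaving out 1 library moved this count between 0 and 3: it was 3 without RP replicate 4 (Gm4969, Mei1 and Tdrd1), 2 without RPM replicate 1 (Gm4969 and Tdrd1), 1 without RPM replicate 2 (Rad21l, with Tdrd1 no longer called) and 0 without RP replicates 1, 2 or 3 or RPM replicates 3 or 4, where 9 to 11 of the 29 had an unadjusted p under 0.05. The range of RPM lines lay above that of RP lines for 6 of the 29 genes, beside 4.97% of all genes. A gene hardly read in RP lines may be listed only through its RPM level, and 4 of the 29 averaged under 1 CPM in RP lines. The lists were also chosen with earlier results of these data known. The median, the 23 genes above 0 and the 6 ranges apart are therefore a description, and nothing is read from them. With addback 6 of the 30 fell and 5 rose, beside 25.5% of all genes lower and 27.7% higher, with a median of 0.07 beside -0.00 over all genes. Without addback replicate 3, 6 fell and 9 rose, and with a filter at a mean CPM of 1, 6 of 26 fell and 3 rose.

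The meiotic cohesin partners did not move as 1 group. Rad21l, the meiotic kleisin subunit, averaged 14 ± 7.43 CPM in RPM and 1.2 ± 0.831 CPM in RP lines (SD, n = 4 each; limma adjusted p = 0.11). DESeq2 called it in the lines and edgeR did not. It fell with addback to 1.48 ± 0.123 CPM, against 3.63 ± 1.22 CPM with empty vector (SD, n = 3 each; limma adjusted p = 0.00427). Smc1b, the meiotic SMC subunit, averaged 10.1 ± 14 CPM in RPM and 1.19 ± 0.817 CPM in RP lines (limma adjusted p = 0.374), a mean set by 30.8 CPM in RPM replicate 3. It rose with addback to 1.31 ± 0.271 CPM, against 0.102 ± 0.176 CPM with empty vector (adjusted p = 0.000981), both near the counting floor. None of the 13 genes of mitotic cohesin and its regulators passed in the lines by limma (2 at an unadjusted p under 0.05), edgeR or DESeq2. With addback 5 fell (Smc3, Rad21, Mau2, Esco2 and Cdca5) and none rose, beside 25.5% of all genes lower and 27.7% higher. Leaving out any 1 empty vector library ended the calls of Rad21 and Mau2, and leaving out addback replicate 2 that of Mau2.

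Among partners of CCDC36 in break formation, Mei1 came closest to the 4 genes in size. It averaged 49.9 ± 28.1 CPM in RPM and 3.92 ± 7.59 CPM in RP lines (SD, n = 4 each; limma adjusted p = 0.118), and 6.29 ± 1.5 CPM with addback and 8.59 ± 2.35 CPM with empty vector (SD, n = 3 each; limma adjusted p = 0.145). Most of the reads behind its RP mean came from RP replicate 4, at 15.3 CPM. Rec114, a binding partner of the same machinery, averaged 1.17 CPM in RPM and 2.16 CPM in RP lines (adjusted p = 0.731). Spo11, which encodes the break-forming enzyme, averaged 2.29 CPM in RPM and 2.73 CPM in RP lines (adjusted p = 0.649). It rose with addback to 2.62 ± 0.518 CPM, against 0.339 ± 0.0781 CPM with empty vector (adjusted p = 7.86e-05), the latter near the counting floor. Prdm9, which marks the sites of breaks, fell with addback to 15.9 ± 3.26 CPM, against 21.9 ± 2.12 CPM with empty vector (adjusted p = 0.0294), a call lost without addback replicate 1 or empty vector replicate 2 or 3. Symbols of the partners Mei4, Ankrd31 and Hormad1 and of the cohesin subunit Rec8 matched no listed gene.

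Of the synaptonemal complex, telomere attachment and recombination genes, Syce2 of the synaptonemal complex averaged 47.2 ± 20.8 CPM in RPM and 13 ± 12.8 CPM in RP lines (SD, n = 4 each, limma adjusted p = 0.18). It fell with addback to 22.3 ± 5.59 CPM, against 101 ± 5.26 CPM with empty vector (SD, n = 3 each; limma adjusted p = 1.43e-06). Msh5, Zcwpw1 and Terb1, genes of crossover formation, histone mark reading and telomere attachment, rose with addback. Their log2 change was 1.79 for Msh5, 1.49 for Zcwpw1 and 0.92 for Terb1 (limma adjusted p = 0.000181, 2.29e-06 and 0.00349). Terb1 averaged 1.19 CPM with addback and 0.149 CPM with empty vector, the latter near the counting floor. None of these 4 passed in the lines by limma, edgeR or DESeq2, and 3 of the 13 genes of their lists had an unadjusted limma p under 0.05.

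Among genes of meiotic entry, Gm4969, which RefSeq lists as Bhmg1 with the synonym Meiosin, encodes the partner of STRA8 in switching on meiotic transcription. It was read at 202, 162, 104 and 157 CPM in RPM replicates 1 to 4, against 0, 0.12, 0.366 and 24.3 CPM in RP replicates 1 to 4. The ranges were apart, and the log2 difference of 5.94 (SE 0.96) just missed the threshold (limma adjusted p = 0.051). With addback it fell to 57.8 ± 1.93 CPM, against 295 ± 0.887 CPM with empty vector (SD, n = 3 each; log2 change -2.33, SE 0.07, limma adjusted p = 5.7e-09). Tdrd1 fell with addback to 26.3 ± 2.14 CPM, against 123 ± 3.23 CPM with empty vector (log2 change -2.18, SE 0.09, adjusted p = 3.41e-08). Ythdc2, an RNA helicase of meiotic entry that somatic cells also express, averaged 52.2 and 51.3 CPM in RPM and RP lines (adjusted p = 0.983), and Meioc, its partner, 0.803 and 0.671 CPM with addback and empty vector (adjusted p = 0.596).

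**Figure D5:**
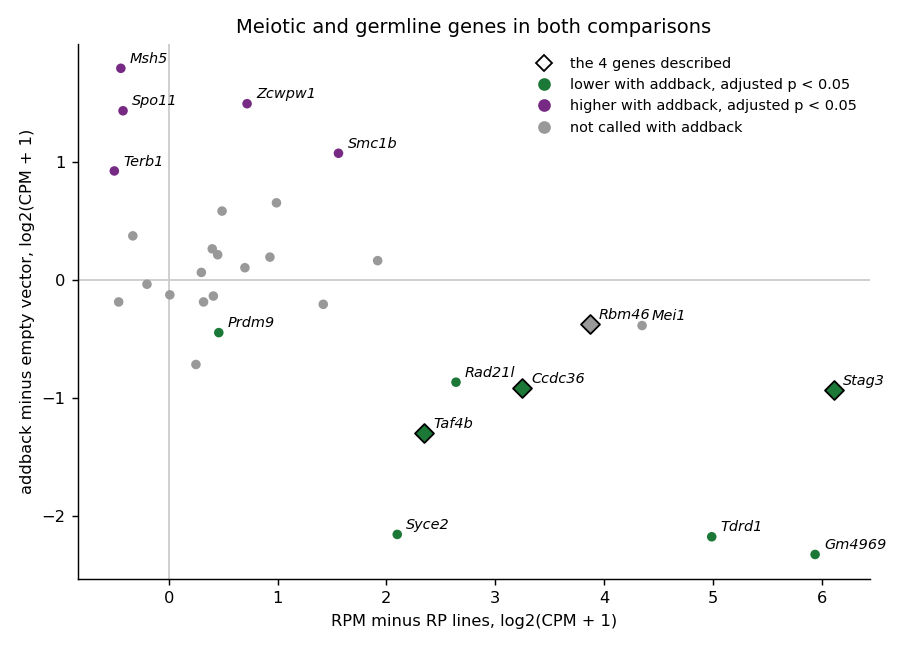
Difference of log2(CPM + 1) between RPM and RP lines (x) and between addback and empty vector libraries (y) for 31 meiotic and germline genes listed in both tables, Stag3, Ccdc36, Rbm46 and Taf4b among them as diamonds; colour gives the limma call with addback. Gm4969, Tdrd1, Syce2 and Rad21l lie with Stag3, Ccdc36 and Taf4b at the lower right, and Spo11, Msh5, Terb1, Zcwpw1 and Smc1b at the top.

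The PRC1.6 complex was listed in full, with 15 genes. By limma none passed in the lines (4 at an unadjusted p under 0.05), by edgeR also none and by DESeq2 Max and Mga. The median log2 difference was 0.01. Mga averaged 314 ± 15.2 CPM in RPM and 244 ± 22.8 CPM in RP lines, E2f6 90 ± 26 and 59.4 ± 7.44 CPM, L3mbtl2 66.4 ± 1.7 and 53.7 ± 6.47 CPM and Pcgf6 65.1 ± 7.79 and 58 ± 9.15 CPM (SD, n = 4 each; limma adjusted p = 0.195, 0.242, 0.286 and 0.618). With addback 5 of the 15 fell and 3 rose, beside 25.5% of all genes lower and 27.7% higher. E2f6 fell to 91.3 ± 1.69 CPM, against 183 ± 5.78 CPM with empty vector (SD, n = 3 each; adjusted p = 1.59e-06), Mga to 214 ± 62 CPM, against 347 ± 3.18 CPM with empty vector (adjusted p = 0.00714), and Pcgf6 to 56 ± 0.271 CPM, against 74.1 ± 0.986 CPM with empty vector (adjusted p = 0.00112). The addback libraries held 254, 246 and 143 CPM of Mga, and without addback replicate 3 its log2 change was -0.47, where all libraries gave -0.74. Rybp and Cbx3 also fell, and Max, Wdr5 and Cbx1 rose, while L3mbtl2 did not pass (adjusted p = 0.329). The call of Wdr5 was lost without empty vector replicate 2 or 3, and that of Cbx1 without addback replicate 1 or any 1 empty vector library.

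Few markers of other cells were listed. No gene of 6 spermatid markers was listed, and Gdf9 of 6 oocyte markers was listed for the addback experiment only, at 0.381 to 0.771 CPM with addback and 0.426 to 0.916 CPM with empty vector. Of 8 markers of primordial germ or pluripotent cells, Sox2 and Tfap2c were listed. Their sum was 0 to 91.2 CPM in RPM and 21.5 to 64.5 CPM in RP lines, 4.11 to 5.14 CPM with addback and 0 to 0.153 CPM with empty vector. The 2 listed fibroblast markers, Col1a1 and Dcn, were lower with addback like Stag3, Ccdc36 and Taf4b. They summed to 3.32 to 45.7 CPM in RPM and 6.38 to 144 CPM in RP lines, and to 5.34 to 7.1 CPM with addback and 28.9 to 39.2 CPM with empty vector. The 1 listed leukocyte marker stayed at or under 4.14 CPM in RPM and 4.33 CPM in RP lines, 3.73 CPM with addback and 3.27 CPM with empty vector, and the 1 listed endothelial marker was at most 0.763 CPM with addback and 1.14 CPM with empty vector. The part of these cells in the levels of the 4 genes was not tested.

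Genes with the most similar pattern were found by Pearson's r of log2(CPM + 1) over the 14 libraries, among 13254 genes. These libraries share the split into RP lines and the rest, and 7 of them come from 1 line, so r is given as a description. Stag3 was most like Gm4969 (r = 0.971), Tdrd1 (0.964) and Cdk7 (0.962), a kinase of the transcription factor TFIIH. Klhl35 (0.955) and Gm4969 (0.940) were among the 3 genes most like Ccdc36. Rbm46 was most like Mei1 (0.934), Wdr77 (0.930), a partner of the methyltransferase PRMT5, and Cmss1 (0.919). Taf4b was most like Dnajb9 (0.975), a chaperone of the endoplasmic reticulum, Nceh1 (0.967) and the zinc finger gene Zfp995 (0.966). The likeness did not imply a like size. Cdk7 averaged 36 ± 3.3 CPM in RPM and 20.9 ± 3.92 CPM in RP lines (SD, n = 4 each), whereas Gm4969 averaged 156 ± 40.1 CPM in RPM and 6.19 ± 12 CPM in RP lines.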

How the data were processed

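Expression was measured by RNA sequencing in 14 libraries of cultured thyroid tumour cells; the other 32 libraries of the series, from tumours, were not analysed here. The submitters' processing notes name bcl2fastq 1.8.4, TopHat2 2.1.0, HTSeq 0.6.1 and edgeR, with the build mm10. The deposited tables hold, per the file headers, CPM scaled by TMM factors (treated here as a signal) and RPKM for each library. They also hold the authors' log2 fold change and mean log2 CPM, a p-value with its FDR, and a score of -1, 0 or 1 as the call. No source used here says which filter chose the genes. The value of 1 read could be found in each library from the lowest CPM values, and 100% of values were then whole reads to within 0.01. No library pair agreed within sampling noise, and none were merged. Libraries were grouped by their titles.

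The tables are normalised values, so the test was limma-trend (limma 3.58.1, R 4.3.3) on log2(CPM + 1) over all listed genes, two-sided, with Benjamini-Hochberg adjusted p under 0.05, on the 8 or 6 libraries of a comparison without covariates. The added 1 CPM understates the change of low genes. A mean of logs also gives low lines more weight than a mean of CPM does. For Stag3 in the lines the log2 difference was 6.11 here and 4.62 in the authors' deposited values. Single genes were also tested by exact permutation of libraries (scipy 1.17.1). Other pseudocounts, a filter, unscaled CPM, edgeR 4.0.16 and DESeq2 1.42.0 on recovered reads, a replicate block and leaving out each library were tried. The limma, edgeR and DESeq2 fits were tested on simulated data. The 4 genes and the gene lists were chosen with earlier results of these data known. In each list the text names genes past the threshold, up to 4 per comparison and direction, fixed partners and paralogues, and, for each of the 4 genes, the 3 genes with the most similar pattern. Of the genes so chosen 2 are not reported here, though list counts include them where they belong. Cbx3, Tbp and Mau2 lie outside that limit and are named to complete a count of 5. Coordinates come from GENCODE vM21 and promoter windows from RefSeq, GRCm38.p6.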

Additional observations from a re-analysis of the deposited data

Results flagged for a closer look

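Of 54 groups of 4 lines examined, for 27 named genes in RPM and in RP lines, 8 held 1 line far from the other 3 by Dixon's test at its 95% critical value. Chance flags about 5% of groups. For Stag3 and Rbm46, which were chosen by their levels in these lines, this is a description and not a test. The same holds for Gm4969, Tdrd1, Mei1, Cmss1 and Wdr77. They were examined because their pattern over these libraries was like that of Stag3 or Rbm46, so shared outlying lines are partly built in. RP replicate 4 accounts for 5 of the 8. It held 46.6 CPM of Stag3 (other RP lines 0 to 3.01 CPM), 24.3 CPM of Gm4969 (0 to 0.366 CPM), 4.71 CPM of Tdrd1 (0 to 0.122 CPM), 15.3 CPM of Mei1 (0.12 to 0.122 CPM) and 25.7 CPM of Cmss1 (19 to 19.5 CPM). This line also held Xist and Ddx3y together, whose part in these levels was not tested. RPM replicate 1 held 48.4 CPM of Rbm46 (other RPM lines 16.8 to 20.9 CPM) and 47.1 CPM of Wdr77 (51.9 to 52.6 CPM). RPM replicate 2 held 129 CPM of E2f6 (75.5 to 77.8 CPM).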

How the results depend on the processing

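Of 168 repeats of a result under an alternative, 146 were held to be unchanged, and none was reversed. These stayed on the same side of their threshold, within the spread between replicates or, for counts of called genes, close to the main count. The counts so held in the addback experiment ran from 6166 to 9035 against 7478 genes. For the 6 germline lists they ran from 9 to 15 against 11. The spread allowed for Stag3 was wide, with an SD of 2.41 (log2) over RP lines. With addback the log2 change over all alternatives was -1.01 to -0.86 for Stag3, -1.02 to -0.84 for Ccdc36 and -1.39 to -1.15 for Taf4b, always called, and -0.50 to -0.19 for Rbm46, never called (adjusted p = 0.0525 to 0.367). The differences between RPM and RP lines were 4.62 to 7.24, 2.82 to 3.67, 3.21 to 4.50 and 2.05 to 2.70 for Stag3, Ccdc36, Rbm46 and Taf4b. All 22 changes were counts of called genes in RPM over RP lines. Against 48 genes by limma, edgeR called 3 (2133 at an unadjusted p under 0.05), DESeq2 658 and leaving out 1 library 0 to 261 (0 without RPM replicate 3, RPM replicate 4 or RP replicate 3, with 1469 to 1805 genes at an unadjusted p under 0.05; 261 without RPM replicate 1). Against 1 gene of the 6 germline lists, a pseudocount of 2 gave 2, edgeR 0 (10 at an unadjusted p under 0.05), DESeq2 3 and leaving out 1 library 0 to 3. With a replicate block limma called 0 genes of all (2463 at an unadjusted p under 0.05) and 0 of the lists (9 at an unadjusted p under 0.05). Deviations of same-numbered RPM and RP lines correlated at 0.41, 0.05, 0.01 and 0.13, and those of differently numbered lines at -0.29 to 0.19. Replicates 1 thus stood above all other pairs, and the other same-numbered lines lay within the range of differently numbered ones. Same-numbered transduced libraries correlated at 0.04, 0.02 and 0.08, and differently numbered ones at -0.08 to 0.04. Depth limits the ratios between lines: RP replicates 1 to 3 held 25, 10 and 0 reads of Stag3 and 7, 0 and 0 reads of Rbm46.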

Other observations

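Mei1, chosen here after its values were seen, shared with Rbm46 a low level in transduced cells. It averaged 8.59 ± 2.35 CPM in the 3 empty vector libraries (SD), against 38 CPM in the untransduced line of RPM replicate 2 in the other table.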
